A study of Mus musculus with 17 samples.

Results

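The transcripts described here were those of *Atf4* and 9 of its target genes (*Ddit3*, *Trib3*, *Asns*, *Chac1*, *Psat1*, *Phgdh*, *Sesn2*, *Ddit4* and *Slc7a11*), 10 genes of the 23282 in the deposited table, chosen by symbol for their place in the integrated stress response. RNA was measured in 17 libraries of male germ cells sorted by FACS after Hoechst and propidium iodide staining, from WT (labelled Wildtype) and *Nat10*-SKO (labelled Stra8-cre_Nat10_KO) mice of the C57BL/6J background (C57BL/6 in the labels). The gates took spermatogonia (SPG), spermatocytes at the pre-leptotene stage (PreL), and spermatocytes at the leptotene and zygotene stages (LZ). The study's genotype for the SKO mice is *Nat10* fl/-;Stra8-GFPCre, which by that notation leaves somatic cells with the floxed allele alone, and Cre driven from the *Stra8* locus excised loxP-flanked exons of *Nat10* in germ cells before meiosis. NAT10 is the enzyme that writes N4-acetylcytidine (ac4C) on RNA. SPG and PreL each had 3 libraries per genotype, and LZ had 2 of WT and 3 of SKO. The labels name no treatment, and the age of the mice behind these libraries was not given in the sources used here. Nothing in the labels said that replicates came from separate animals, so the p-values measure the spread between these libraries, which may in part be technical.

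The integrated stress response starts when a kinase (PERK, GCN2, PKR or HRI) phosphorylates the translation factor eIF2 in answer to unfolded protein, lack of amino acids, double-stranded RNA or lack of heme. Translation then falls in general, while the mRNA of ATF4, a bZIP transcription factor, is translated more. ATF4 binds as a dimer, often with a C/EBP protein, and raises genes for amino acid supply (*Asns*, *Psat1*, *Phgdh*, *Slc7a11*), for control of the response itself (*Ddit3*, which encodes CHOP, and *Trib3*), for glutathione breakdown (*Chac1*) and for mTORC1 inhibition (*Sesn2*, *Ddit4*). Since ATF4 is controlled largely at translation, the level of its mRNA does not give the level of the protein, and only RNA was measured here.

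The site that ATF4 and C/EBP proteins share, the C/EBP-ATF response element, has the core TGATGNAA. This core was searched on both strands of RefSeq promoter windows (250 bases before to 50 after each start, GRCm38.p6), together with the cAMP response element TGACGTCA. All 10 genes had a window. The first core was found in 4 of the 10 genes, against 4.51% of the 27025 genes in the table and 3.97% of its 32851 windows. The second was found in 0 of the 10, against 2.03% of genes, so no match of it overlapped the first. The stretches that held the core are shown because they are a feature that 4 of the 10 genes have in common beyond their symbols, with the core or its reverse complement in capitals, 5′ to 3′ on the strand of the gene:
*Asns*, chr6:7693210-7693252, minus strand: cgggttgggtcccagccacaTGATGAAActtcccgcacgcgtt
*Chac1*, chr2:119351029-119351076, plus strand: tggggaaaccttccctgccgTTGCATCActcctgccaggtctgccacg
*Slc7a11*, chr3:50443633-50443699, minus strand: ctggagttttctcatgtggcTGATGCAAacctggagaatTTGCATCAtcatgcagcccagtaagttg
*Trib3*, chr2:152344028-152344057, minus strand: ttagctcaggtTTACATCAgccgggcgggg
The core began 23 bases before the RefSeq start in *Asns*, 193 bases before it in *Chac1*, and 66 and 47 bases before it in *Slc7a11*, where the pair lies on opposite strands. In *Trib3* it lay at bases 15 to 22 after the RefSeq start. The windows of *Atf4*, *Ddit3*, *Psat1*, *Phgdh*, *Sesn2* and *Ddit4* held no match. A match is a run of letters and not a measured binding site. These 4 genes were not alike in abundance: *Asns* was among the abundant transcripts, while *Chac1*, *Slc7a11* and *Trib3* were sparse.

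The libraries held 9885136 to 13820953 recovered reads in SPG, PreL and WT LZ, and 5812380 to 7609420 in SKO LZ. Values below are normalised counts, the deposited ERCC-calibrated values divided by size factors over the 17 libraries, unless another scale is named. Log2 differences were fitted within a stage on log2(rescaled value + 10), which understates the change of sparse genes. *Nat10* ranged from 542 to 823 in WT libraries and from 184 to 470 in SKO libraries, with no overlap in any stage. The sorted populations differed in content between genotypes. Summed markers of late spermatocytes (7 genes) came to 3169 and 5632 RPM (reads scaled to a library total of 1000000) in WT LZ and to 79.7 to 88.7 in SKO LZ, and those of spermatids (7 genes) to 548 and 948 against 2.92 to 3.94. Leydig cell markers (7 genes) ran the other way, at 20.9 and 57.3 RPM in WT LZ and 79.1 to 230 in SKO LZ. In SPG they were at 5.61 to 15.5 in WT and 62.5 to 225 in SKO, and macrophage markers (8 genes) were at 8.37 to 15.9 and 92.8 to 168. The 12 immediate early genes were at 63.2 to 96.9 RPM in WT SPG and at 360 to 663 in SKO SPG. Early meiotic markers (9 genes) were present in every group, at 2726 to 8422 RPM over all libraries. Their sums were higher in SKO without overlap in SPG (2726 to 2841 in WT, 3808 to 4158 in SKO) and in PreL (3828 to 4582 and 5856 to 8422). In LZ they overlapped (4628 and 5516 in WT, 3324 to 5069 in SKO). Of the markers tested in SPG, 5 of 7 Leydig, 6 of 8 macrophage and 3 of 4 peritubular myoid genes were called higher and 6 of 7 spermatid genes lower. In PreL, 6 of 7 Leydig genes were called higher (summed, 6.25 to 17.7 RPM in WT and 40.4 to 459 in SKO), and 5 of 6 late spermatocyte genes (380 to 1056 in WT and 122 to 144 in SKO) and 5 of 7 spermatid genes (551.5 to 921 and 4.17 to 5.68) lower. In LZ all 7 late spermatocyte and all 7 spermatid genes were called lower and 5 of 7 Leydig genes higher. *Acrv1* was at 0 in SKO SPG and SKO LZ, *Odf1* in SKO LZ, and *Lhcgr* and *Emr1* in WT SPG. The part of these differences in content in the values of the members was not tested. In bulk RNA, fewer cells of a type and less RNA per cell cannot be told apart.

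Few of the 10 genes passed the thresholds of the study (Benjamini-Hochberg adjusted p under 0.05 and an absolute log2 difference above 1) in any stage. In SPG, 9 of the 10 averaged 10 reads or more and were tested with limma, and 0 were called higher and 0 lower, where 3.95% and 2.06% of all 12846 genes tested were. At an unadjusted p under 0.05, 4 differed in SPG (*Atf4*, *Ddit3*, *Psat1* and *Slc7a11*), and edgeR and DESeq2 called 0 as well. No share of all genes at that unadjusted p is given here, so counts at it are not read as results about the members. In PreL, 8 were tested and 0 were called in either direction, against 5.32% of 13132 genes higher and 5.83% lower, while 5 had an unadjusted p under 0.05 (*Asns*, *Ddit3*, *Phgdh*, *Psat1* and *Trib3*) and edgeR and DESeq2 again called 0. In LZ, 9 were tested, 1 was called higher (*Ddit4*) and 1 lower (*Ddit3*), against 13.4% of 13724 genes higher and 25.8% lower. The median log2 difference of the tested members was 0.33 in SPG, 0.44 in PreL and 0.45 in LZ, where the median over all genes tested was 0.00, 0.04 and -0.13. *Chac1* passed the minimum of 10 reads in no stage, and *Slc7a11* missed it in PreL. In SPG the mean of *Slc7a11* lay on that minimum, with 1 to 2 reads in WT libraries and 10 to 25 in SKO libraries. It was thus tested in SPG only because of its SKO reads. The SPG median and the 4 genes at an unadjusted p under 0.05 in SPG include it. The same held for *Trib3* in PreL, with 0 to 10 reads in WT libraries and 18 to 34 in SKO libraries. It also held for *Slc7a11* in LZ, with 15 and 0 reads in WT and 3 to 28 in SKO. The PreL and LZ medians include these genes, as do the 5 genes at that unadjusted p in PreL for *Trib3*.

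**Figure D1:**
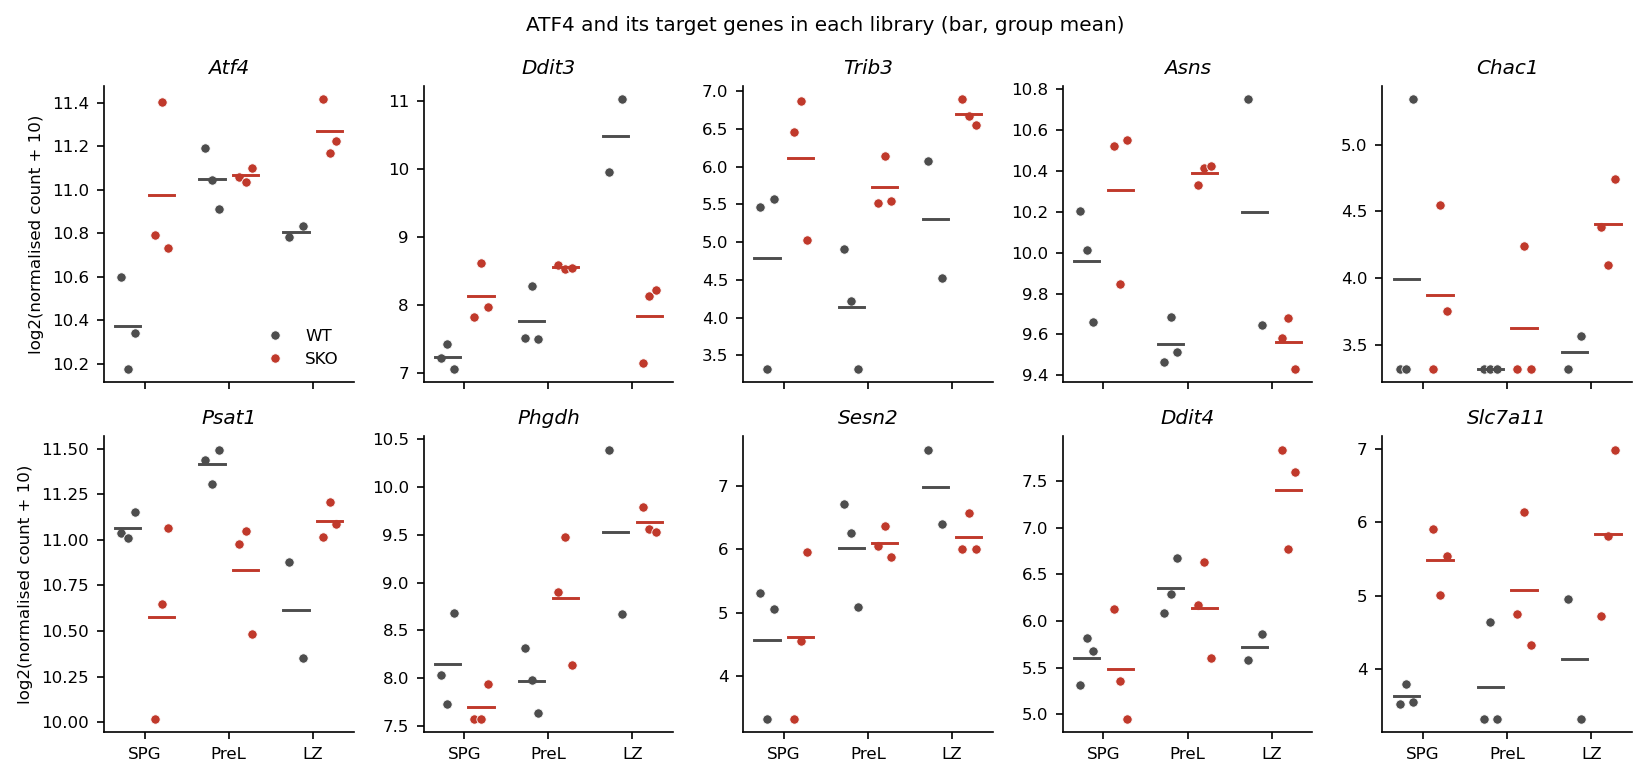
Level of each of the 10 genes, as log2(normalised count + 10), in every library of SPG, PreL and LZ, with WT in grey, SKO in red and a bar at the group mean. *Ddit3* was apart between genotypes in all 3 stages, above WT in SKO SPG and PreL and below it in LZ.

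**Figure D2:**
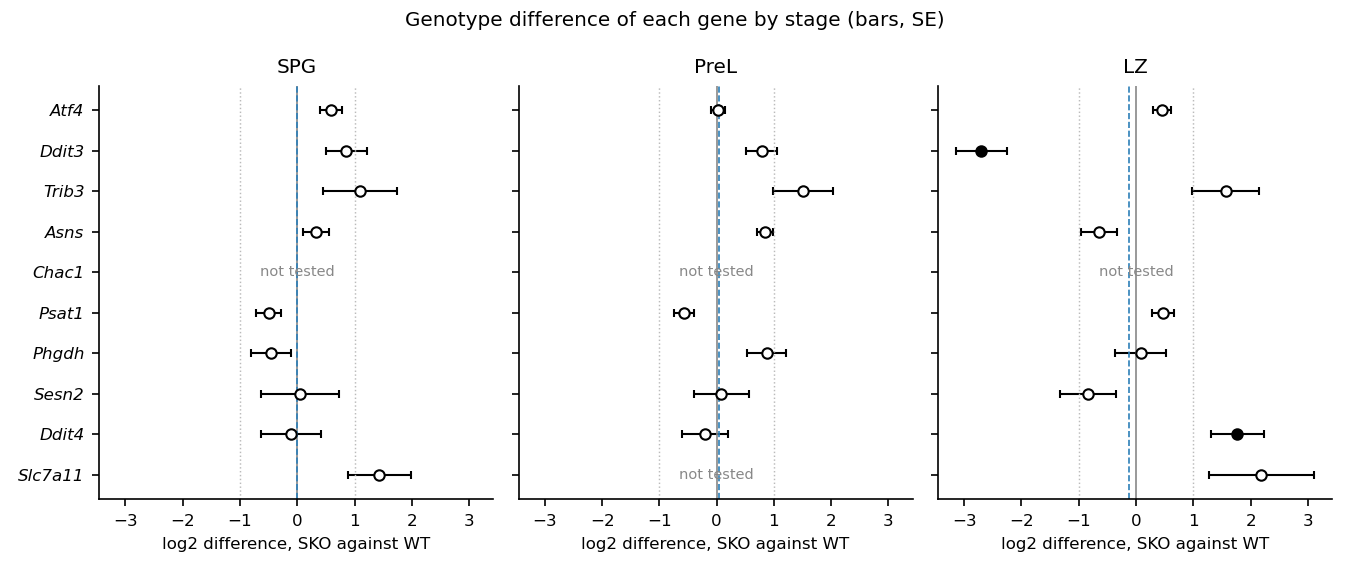
Log2 difference of SKO against WT for each gene in each stage, with the standard error as a bar; filled points passed both thresholds, dotted lines mark a difference of 1 and the dashed line the median of all genes. Only *Ddit3* and *Ddit4*, both in LZ, are filled.

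The scale on which SKO and WT are compared matters most in PreL. The calibration raised the SKO PreL libraries by factors of 2 to 2.48 and the WT PreL libraries by 1.24 to 1.63, and without rescaling the median over all genes moved by 0.69 on the log2 scale in PreL, by -0.25 in SPG and by -0.12 in LZ. On that scale 4 members were called higher in SKO PreL (limma), where 26.3% of all genes tested were. They were *Ddit3* (1.48), *Trib3* (1.95), *Asns* (1.56) and *Phgdh* (1.57), and relative to the shift of all genes their differences stayed near those given below. *Trib3* was tested in PreL only because of its SKO reads, as given above.

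*Atf4* (chr15:80255184-80257541, plus strand, GRCm38) encodes the transcription factor of the response. Per length it was among the most abundant members, with group means of 26.3 to 42.5 RPM per kilobase of exon (RPKM). In SPG it stood at 1543, 1148 and 1286 normalised counts in WT and at 1764, 2701 and 1692 in SKO. All SKO libraries lay above all WT libraries, and the log2 difference was 0.59 (SE 0.20, limma, adjusted p = 0.0735), which did not pass. In PreL the level was 2329, 2106 and 1917 in WT and 2125, 2092 and 2188 in SKO, a difference of 0.02 (SE 0.12). In LZ it was 1751 and 1814 in WT and 2723, 2291 and 2386 in SKO, again with no overlap. In RPM, which size factors do not adjust, the LZ groups overlapped, at 90.1 and 71.7 in WT and 86.0, 85.0 and 82.4 in SKO. The fitted difference, 0.45 (SE 0.16), was past the p threshold of limma (adjusted p = 0.0486) and under the fold threshold, and its adjusted p ranged from 0.0351 to 0.225 over the other settings. SKO LZ had the highest and WT SPG the lowest mean of the 6 groups, and the 4 groups between them overlapped with at least a neighbour in rank. Within WT, *Atf4* was 0.68 higher in PreL than in SPG (SE 0.16, limma, adjusted p = 0.0146), under the fold threshold.

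*Ddit3* (chr10:127290774-127296288, plus strand) encodes CHOP, the bZIP factor that promotes cell death when the response persists. It stood at 139, 161 and 124 normalised counts in WT SPG and at 216, 380 and 241 in SKO SPG. In PreL it was at 173, 299 and 171 in WT and at 373, 357 and 364 in SKO. The SKO libraries lay above the WT libraries in both stages, and neither difference passed: 0.86 (SE 0.36, limma, adjusted p = 0.150) in SPG and 0.79 (SE 0.27, adjusted p = 0.0724) in PreL. Leaving out WT PreL replicate 2, the highest WT library, gave 1.04 in PreL, which passed (adjusted p = 0.036).

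LZ turned this order around. *Ddit3* reached 979 and 2060 normalised counts in WT LZ, the highest of the 6 groups with no overlap with any other, and stayed at 131, 269 and 288 in SKO LZ. The log2 difference of SKO against WT was -2.70 (SE 0.45, limma, adjusted p = 0.00193), and without WT LZ replicate 3 it was -2.17 and did not pass (adjusted p = 0.066). Within WT it rose by 2.72 on the log2 scale from PreL to LZ (SE 0.39, limma, adjusted p = 3.29e-05), and within SKO the difference was -0.72 (SE 0.35, adjusted p = 0.137). The genotype difference of LZ less that of PreL was -3.44 (SE 0.52, limma, adjusted p = 4.50e-05), and it passed under all 27 other settings. The 2 WT LZ libraries that held most *Ddit3* were also those with late spermatocyte markers at 3169 and 5632 RPM, replicate 3 being the higher of the pair in both, and all 7 of those markers were called lower in SKO LZ. Their part in the *Ddit3* result was not tested. Exons of *Ddit3* overlap 68 bases of *Mars* and 13 bases of *Gm4189* on the opposite strand, and in unstranded libraries such reads cannot be told apart. The log2 difference of *Mars* in LZ was -0.55.

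*Trib3* (chr2:152337422-152344032, minus strand), a pseudokinase that restrains ATF4 and CHOP, was sparse, with group means of 0.21 to 1.53 RPKM. In SPG it was at 34.4, 0 and 37.6 normalised counts in WT and 78.1, 107 and 22.7 in SKO. PreL libraries held 19.9, 8.55 and 0 in WT and 35.8, 60.4 and 36.6 in SKO, and LZ libraries 57.7 and 13.0 in WT and 109, 92.05 and 83.6 in SKO. The SKO libraries were above all WT libraries in PreL and LZ and overlapped with them in SPG. In RPM the LZ groups overlapped, at 2.97 and 0.51 in WT and 3.44, 3.42 and 2.89 in SKO. The log2 differences were 1.09 (SE 0.64), 1.52 (SE 0.52) and 1.56 (SE 0.58), all with a limma adjusted p above 0.05 (0.308, 0.0741 and 0.0557). The LZ difference passed without WT LZ replicate 2 (2.43, adjusted p = 0.00851) and was 0.65 without WT LZ replicate 3 (adjusted p = 0.154).

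*Chac1* (chr2:119351229-119354381, plus strand), which encodes a gamma-glutamylcyclotransferase that breaks down glutathione, was barely detected. It had 0, 0 and 17 reads in WT SPG, 0, 6 and 2 in SKO SPG, 0 in all WT PreL libraries, 0, 5 and 0 in SKO PreL, 0 and 1 in WT LZ and 2, 2 and 4 in SKO LZ. A count of 0 still allows up to 3 reads, or 0.280 to 0.284 RPM in the WT PreL libraries. It was too sparse to be tested in any stage. In LZ all SKO libraries lay above both WT libraries, and the pooled RPM were 10.8 times as high in SKO, with a 95% Clopper-Pearson interval of 1.45 to 480 that covers counting error only.

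*Asns* (chr6:7675169-7693254, minus strand), the enzyme that makes asparagine, was an abundant member, with group means of 9.45 to 22.9 RPKM. In SPG it was at 1169, 1022 and 800.3 normalised counts in WT and 1460, 912 and 1493 in SKO, with overlap, a log2 difference of 0.33 (SE 0.22). In PreL it was at 697, 812 and 721 in WT and 1281, 1355 and 1367 in SKO. The groups did not overlap, and the log2 difference was 0.84 (SE 0.14, limma, adjusted p = 0.00476), past the p threshold and under the fold threshold. With each PreL library left out in turn it ranged from 0.79 to 0.90, with adjusted p from 0.0105 to 0.0284. The PreL libraries also differed in Leydig cell, late spermatocyte, spermatid and early meiotic markers, as given above. In that stage 3 of 6 tested Sertoli cell genes and 5 of 12 immediate early genes were called higher in SKO. The part of these differences in the *Asns* result was not tested. In LZ, 1713 and 790.3 in WT stood against 757, 811 and 681 in SKO. The LZ difference of -0.65 (SE 0.31, adjusted p = 0.118) rested on WT LZ replicate 2: without it the difference was -0.14, and without replicate 3 it was -1.21 and passed (adjusted p = 0.0135). Within SKO, *Asns* was lower in LZ than in PreL (-0.83, SE 0.24, limma, adjusted p = 0.0131), under the fold threshold. The genotype difference of LZ less that of PreL was -1.47 (SE 0.36, limma, adjusted p = 0.00321), and it ranged from -2.34 to -0.92 over 27 other settings, past the p threshold in each.

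*Psat1* (chr19:15904678-15947337, minus strand) and *Phgdh* (chr3:98313170-98339990, minus strand) encode enzymes of the same route, the synthesis of serine from a glycolytic intermediate: PHGDH opens it and PSAT1 takes the next step. Per length *Psat1* (group means of 17.4 to 28.5 RPKM) was more abundant than *Phgdh* (3.73 to 16.9 RPKM) by the mean of each group, though in WT LZ the libraries of both genes overlapped. Their patterns over the groups differed.

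*Psat1* was at 2090, 2049 and 2265 normalised counts in WT SPG and at 1027, 1594 and 2135 in SKO SPG, where the SKO libraries spread widely. In PreL it was at 2769, 2522 and 2874 in WT and at 2008, 2110 and 1420 in SKO, with all SKO libraries below all WT libraries. LZ had the opposite order, with 1871 and 1299 in WT and 2064, 2351 and 2165 in SKO, though in RPM the groups overlapped (96.2 and 51.4 against 65.2, 87.3 and 74.8). The log2 differences were -0.50 (SE 0.22, limma, adjusted p = 0.163), -0.57 (SE 0.17, adjusted p = 0.0438) and 0.47 (SE 0.19, adjusted p = 0.0705), none beyond the fold threshold. With a PreL library left out, the adjusted p in PreL was 0.0515 to 0.098. On the ERCC-calibrated scale the PreL difference changed sign to 0.15. The genotype difference of LZ less that of PreL was 1.06 (SE 0.31, limma, adjusted p = 0.0118). It did not pass without WT LZ replicate 3 (0.79, adjusted p = 0.097) or on the ERCC-calibrated scale (0.20, adjusted p = 0.7). Within WT, *Psat1* was lower in LZ than in PreL (-0.80, SE 0.23, limma, adjusted p = 0.0098), under the fold threshold.

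*Phgdh* was at 252, 202 and 399 normalised counts in WT SPG and at 180.2, 180.1 and 236 in SKO SPG. PreL libraries held 309, 242 and 188 in WT and 469, 702 and 272 in SKO. WT LZ libraries held 1332 and 398, and SKO LZ libraries 877, 747 and 731. The genotypes overlapped in every stage, and the log2 differences were -0.45 (SE 0.35), 0.87 (SE 0.35, limma, adjusted p = 0.1102) and 0.09 (SE 0.45). The PreL difference passed without SKO PreL replicate 3, the lowest SKO library (1.22, adjusted p = 0.0233), and was 0.56 without SKO PreL replicate 2, the highest (adjusted p = 0.335). The LZ difference moved to -0.78 without WT LZ replicate 3 and to 0.91 without replicate 2. Within WT, *Phgdh* rose by 1.56 on the log2 scale from PreL to LZ (SE 0.43, limma, adjusted p = 0.0067), and without WT LZ replicate 2 the value was 0.70 and did not pass (adjusted p = 0.25). Sertoli cell markers (7 genes) were at 334 RPM in WT LZ replicate 2 and 73.6 in replicate 3. They were at 243, 288 and 25.9 RPM in the SKO PreL libraries in the order above, at 19.98 to 27.0 in WT PreL, at 231 to 269 in SKO LZ and at 4.65 to 18.8 in SPG. In the SKO group of each stage and in WT LZ, the library lowest in *Phgdh* was also the lowest in these markers. That rank was a near tie in SKO SPG (180.1 against 180.2 normalised counts) and close in SKO LZ (731 against 747), and WT LZ had 2 libraries. In WT SPG and WT PreL the library lowest in *Phgdh* was not the lowest in the markers, and in WT PreL that library (188) had the highest marker sum (27.0 RPM). *Amh* was at 0 in WT PreL and in SKO LZ, and *Fshr* in SKO SPG. The part of these markers in the *Phgdh* levels was not tested.

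*Slc7a11* (chr3:49892526-50443614, minus strand) encodes the light chain of the cystine-glutamate exchanger, which feeds glutathione synthesis, and was the sparsest member but *Chac1* by reads. In WT SPG it had 1, 2 and 1 reads and in SKO SPG 25, 10 and 21. All SKO libraries lay above all WT libraries, and the pooled RPM were 15.7 times as high in SKO (95% Clopper-Pearson interval of the read share, 5.82 to 59.8, counting error only). The fitted log2 difference, compressed by the pseudocount at these levels, was 1.44 (SE 0.56, limma, adjusted p = 0.116), and it passed when no filter on low values was used (adjusted p = 0.0489). In PreL it had 0, 7 and 0 reads in WT and 9, 34 and 5 in SKO, and in LZ 15 and 0 in WT and 3, 13 and 28 in SKO. Both pairs of groups overlapped, and the log2 difference in LZ was 2.19 (SE 0.92, limma, adjusted p = 0.0826). That value was 0.96 without WT LZ replicate 3 (adjusted p = 0.549) and 3.38 without WT LZ replicate 2 (adjusted p = 0.0871). Beside the SPG values, macrophage and Leydig cell markers were higher in all SKO SPG libraries than in all WT SPG libraries, as given above, and their part in the result was not tested.

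*Sesn2* (chr4:132492032-132510501, minus strand) and *Ddit4* (chr10:59949669-59951834, minus strand) encode inhibitors of mTORC1, the kinase complex that drives growth. *Sesn2* was at 29.7, 0 and 23.3 normalised counts in WT SPG and 0, 13.3 and 52.4 in SKO SPG. In PreL it was at 95.6, 66.3 and 24.0 in WT and 56.5, 72.8 and 48.75 in SKO, and in LZ at 180 and 74.0 in WT and 54.5, 85.0 and 54.3 in SKO. The genotypes overlapped in each stage, the differences were 0.05, 0.08 and -0.84, and none passed (limma, adjusted p = 0.976, 0.924 and 0.189). The LZ value ran from -1.46 without WT LZ replicate 3 to -0.27 without WT LZ replicate 2.

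*Ddit4* gave the only higher call. It was at 29.7, 46.6 and 41.2 normalised counts in WT SPG against 60.1, 31.1 and 20.95 in SKO, and at 57.7, 68.4 and 91.8 in WT PreL against 62.2, 88.8 and 38.6 in SKO. In LZ it was at 38.0 and 48.1 in WT and at 218, 99.1 and 184 in SKO. On this scale SKO LZ stood above every other group without overlap. In RPM it overlapped with PreL: SKO LZ replicate 2 was at 3.68, WT PreL replicate 4 at 3.92 and SKO PreL replicate 2 at 4.44. The WT LZ libraries, at 1.95 and 1.90 RPM, stayed below all SKO LZ libraries. The log2 differences were -0.11 (SE 0.53) in SPG, -0.20 (SE 0.41) in PreL and 1.77 (SE 0.46, limma, adjusted p = 0.0154) in LZ. The LZ values rest on 27 and 26 reads in WT and 40, 28 and 44 in SKO, and the call was lost without WT LZ replicate 2 (1.57, adjusted p = 0.104), WT LZ replicate 3 (1.92, 0.0844), SKO LZ replicate 1 (1.55, 0.0553) or SKO LZ replicate 3 (1.67, 0.057). Within SKO it rose by 1.27 on the log2 scale from PreL to LZ (SE 0.44, limma, adjusted p = 0.0408). This call was lost without SKO PreL replicate 1 (1.28, adjusted p = 0.0938) or 3 (0.999, 0.186), or SKO LZ replicate 1 (1.05, 0.169) or 3 (1.16, 0.121). The genotype difference of LZ less that of PreL was 1.89 (SE 0.67, limma, adjusted p = 0.0309), with adjusted p from 0.0145 to 0.144. Leydig cell markers (79.1 to 230 RPM in SKO LZ, 20.9 and 57.3 in WT LZ) and immediate early genes (293 to 398 against 82.5 and 206) were also higher in all SKO LZ libraries, and their part in the *Ddit4* result was not tested.

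Across stages, the calls among the members were few. From SPG to PreL, 0 of 9 tested members were called in WT, where 3.57% of all 13530 genes were called higher and 1.76% lower, and 0 were called in SKO, against 3.06% and 0.939%. At an unadjusted p under 0.05, *Atf4* and *Sesn2* stood apart in WT and *Phgdh* and *Sesn2* in SKO, and DESeq2 called 1 member in SKO and 0 in WT, while edgeR called 0 in both. As in the genotype comparisons, no share of all genes is given at that unadjusted p. From PreL to LZ, 2 were called higher in WT (*Ddit3* and *Phgdh*) and 0 lower, against 22.3% and 6.65% of all genes, and in SKO 1 was called higher (*Ddit4*) and 0 lower, against 8.22% and 5.05%. The WT and SKO stage comparisons share no library. The genotype difference did not change from SPG to PreL for any member by limma (0 of 9, with 0.251% of all genes higher and 0.111% lower, while *Atf4* and *Phgdh* had an unadjusted p under 0.05). From PreL to LZ it changed for 4 of 9: higher in LZ for *Psat1* and *Ddit4*, where 15.1% of all genes were, and lower in LZ for *Ddit3* and *Asns*, where 23.1% were.

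**Figure D3:**
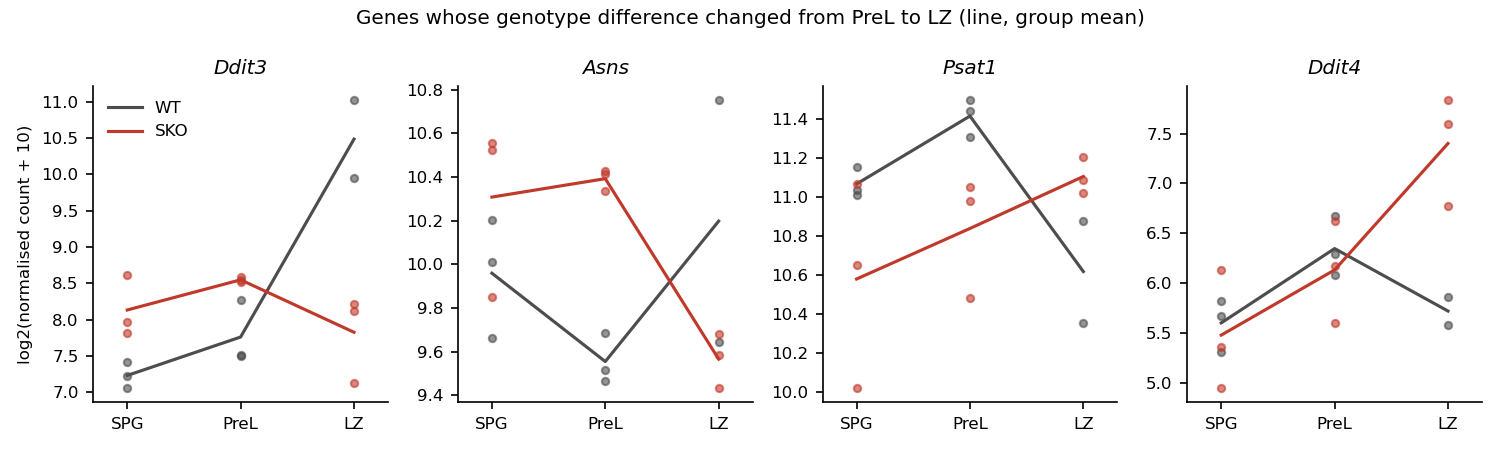
Levels of *Ddit3*, *Asns*, *Psat1* and *Ddit4* over the stages, as log2(normalised count + 10), with a point per library and a line through the group means of WT (grey) and SKO (red). The lines cross or part between PreL and LZ: *Ddit3* rose in WT LZ to 979 and 2060 normalised counts, and *Ddit4* rose in SKO LZ to 99.1 to 218.

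Upstream of ATF4, the 16 genes for eIF2 kinases, their helpers, eIF2 itself, its phosphatase subunits and its exchange factor eIF2B had 1 higher call in SPG, 1 in PreL and 1 in LZ, and 4 lower calls, all in LZ, where 25.8% of all genes tested were lower, a share near that of the list. *Ppp1r15a*, which encodes the inducible phosphatase subunit GADD34, was at 216 to 319 normalised counts in WT SPG and 491 to 600.3 in SKO SPG. Its log2 difference of 1.001 (SE 0.27, limma, adjusted p = 0.0316) sat on the fold threshold, and the call was lost under 11 of 16 other settings. *Eif2ak4* (GCN2, the amino acid sensor) was at 87.6 to 153 in WT PreL and 272 to 360 in SKO PreL (1.398, SE 0.30, limma, adjusted p = 0.0131), and the call was lost without SKO PreL replicate 1 (1.29, 0.0769). In LZ, *Eif2ak3* (PERK, the kinase of the endoplasmic reticulum) was higher (1.16, SE 0.26, limma, adjusted p = 0.00845), though at 0.87 without WT LZ replicate 3 it was under the fold threshold. *Gcn1l1*, the partner of GCN2 (-1.44, SE 0.21, limma, adjusted p = 0.00119), was lower. So was *0610009O20Rik*, the older symbol of *Dele1*, which relays mitochondrial stress to HRI (-2.36, SE 0.45, limma, adjusted p = 0.00391), with the call lost without WT LZ replicate 3 (-1.81, 0.0878). The other lower calls in LZ were *Eif2s1* (-1.06), the eIF2 alpha subunit, and *Eif2b1* (-1.22).

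The bZIP factors that pair with ATF4 or resemble it had 6 of 7 tested genes called in LZ, the stage in which 13.4% of all genes were called higher and 25.8% lower. Of the 7, 2 were called higher in SPG, 1 in PreL and 5 in LZ, with 1 lower in LZ, and the list's median log2 difference was 0.11, -0.07 and 2.32. *Atf3*, a stress-induced relative that is also an immediate early gene, was at 0 to 55.5 normalised counts in WT SPG and 201 to 487 in SKO SPG (3.12, SE 0.58, limma, adjusted p = 0.00435); DESeq2 did not call it (adjusted p = 0.0837). In LZ, *Nfe2l2* (NRF2, the oxidative stress factor) was at 668 and 885 in WT and 1835 to 1889 in SKO (1.25, SE 0.18, limma, adjusted p = 0.000972), called under all 16 other settings. *Cebpg*, the partner of ATF4 on amino acid genes, was at 1589 and 2663 in WT and 822 to 965 in SKO (-1.18, SE 0.25, limma, adjusted p = 0.00591), with -0.81 without WT LZ replicate 3. The remaining higher calls in LZ were *Atf3* (3.12), *Atf5* (2.32), *Cebpb* (3.49) and *Cebpd* (3.05), and *Cebpd* was also called in SPG (2.51) and PreL (1.82). All 12 immediate early genes were called higher in SPG, 5 in PreL and 8 in LZ.

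**Figure D4:**
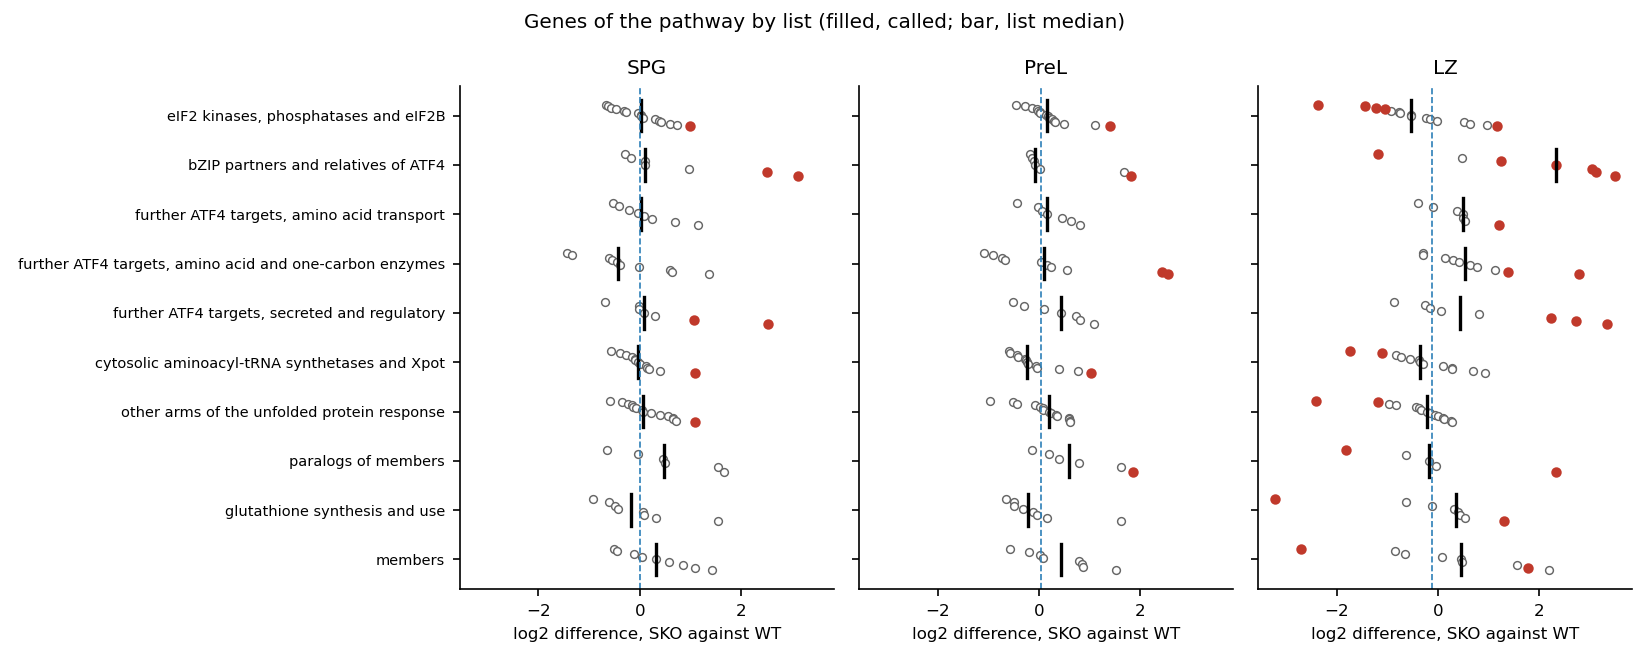
Log2 difference of SKO against WT for each tested gene of 9 pathway lists and of the members, by stage; filled points were called, the black bar is the list's median and the dashed line the median of all genes. The bZIP list in LZ has its median at 2.32, against -0.13 for all genes.

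Calls among further targets of ATF4 stand beside 3.95% of all genes called higher in SPG, 5.32% in PreL and 13.4% in LZ. These shares, with 25.8% called lower in LZ, also stand beside the other pathway lists. The lists are short, so their counts here are not read as results about the lists. Among 8 amino acid transporters, 0 were called in SPG and PreL and 1 higher in LZ: *Slc38a2*, which takes up small neutral amino acids, at 689 and 1052 in WT LZ and 1831 to 2195 in SKO LZ (1.19, SE 0.21, limma, adjusted p = 0.00274), with 0.89 without WT LZ replicate 3. Among 11 enzymes of amino acid and one-carbon metabolism, of which 10 were tested, 0 were called in SPG, 2 higher in PreL (*Got1*, 2.54, and *Gpt2*, 2.43) and 2 higher in LZ (*Pycr1*, 2.77, and *Gpt2*, 1.38). The *Gpt2* call in LZ was lost under 9 of 16 other settings, among them those without WT LZ replicate 3 (0.61, adjusted p = 0.278) or SKO LZ replicate 1 (1.58, 0.0567), 2 (1.403, 0.09) or 3 (1.18, 0.114). *Psph*, *Shmt2* and *Mthfd2*, which work beside *Psat1* and *Phgdh*, were not called in any stage, though *Mthfd2* was past the p threshold in PreL (-0.67, limma, adjusted p = 0.00624). Among 11 secreted and regulatory targets, 7 or 8 of them tested, 2 were called higher in SPG (*Herpud1* and *Nupr1*), 0 in PreL and 3 in LZ. The LZ calls were *Tnfrsf10b*, the death receptor that CHOP can induce, at 470 and 570 in WT and 4397 to 6535 in SKO (3.34, SE 0.22, limma, adjusted p = 5.18e-05), *Gadd45a* at 191 and 196 in WT and 903 to 945 in SKO (2.22, SE 0.21, limma, adjusted p = 0.000149), and *Nupr1* (2.72). The first 2 of these kept their call under all 16 other settings. *Herpud1* in SPG (1.08, SE 0.26, limma, adjusted p = 0.0171) lost it under 7 of 16.

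Of the 13 genes for cytosolic aminoacyl-tRNA synthetases and the tRNA exporter *Xpot*, *Xpot* was called higher in SPG (1.10, limma, adjusted p = 0.0190) and PreL (1.04, adjusted p = 0.0193), and no synthetase was. In LZ 2 synthetases were called lower, *Wars* at 535 and 792 in WT and 153 to 230 in SKO (-1.74, SE 0.32, limma, adjusted p = 0.00323) and *Aars* at 1755 and 2210 in WT and 811 to 1018 in SKO (-1.10, SE 0.20, adjusted p = 0.00287), the latter at -0.93 without WT LZ replicate 3 and -0.99 without SKO LZ replicate 3. *Xpot* lost its call under 7 of 16 other settings in SPG and 4 of 16 in PreL. The list's median was -0.03, -0.23 and -0.36 in the 3 stages.

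The other arms of the unfolded protein response (15 genes) had 1 higher call in SPG, *Ern1* (1.10, limma, adjusted p = 0.0307, lost under 9 of 16 other settings), which encodes the sensor IRE1, 0 calls in PreL and 2 lower calls in LZ. These were the endoplasmic reticulum chaperone partners *Sdf2l1*, at 2416 and 5393 in WT and 570 to 861 in SKO (-2.41, SE 0.35, limma, adjusted p = 0.00111), and *Creld2*, at 5727 and 6827 in WT and 2560 to 2913 in SKO (-1.18, SE 0.16, limma, adjusted p = 0.000798), called under all 16 other settings. *Hspa5*, the main chaperone of that compartment, was past the p threshold but not the fold threshold in SPG (0.72, limma, adjusted p = 0.00119) and PreL (0.61, adjusted p = 0.0318), and its difference in LZ was 0.00. In glutathione metabolism (8 genes), 0 were called in SPG and PreL. In LZ *Gsr*, glutathione reductase, was called higher (1.31, limma, adjusted p = 0.00465; 0.83 and not called without WT LZ replicate 3) and *Gpx4*, the lipid peroxidase that sperm also use as a structural protein, lower. *Gpx4* was at 9060 and 18130 in WT LZ and 1171 to 1653 in SKO LZ (-3.22, SE 0.30, limma, adjusted p = 0.000141). Among 6 paralogs of the members, 0 were called in SPG, *Trib2* higher in PreL (1.86), and *Trib1* higher (2.33) and *Ddit4l* lower (-1.82, limma, adjusted p = 0.00926) in LZ. The *Ddit4l* call was lost without WT LZ replicate 3 (-1.31, adjusted p = 0.1) and in the fit of all 17 libraries (-1.77, adjusted p = 0.0838). In the 8 cases of a list with 0 calls in a stage, 25 of 69 gene tests had an unadjusted p under 0.05, edgeR called 0 and DESeq2 called 2. The share of all genes at that unadjusted p is not given here either.

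Over the 17 libraries, the tested members were only loosely alike. The highest Pearson r between a pair of the 9 that averaged 10 reads or more was 0.70, for *Sesn2* and *Phgdh*, followed by 0.64 for *Slc7a11* and *Trib3*, and the lowest was -0.53, for *Ddit4* and *Asns*. *Atf4* reached 0.53 with *Trib3*. Among 8666 genes that averaged 100 reads or more, those most like *Atf4* were *Gatad2a* (0.87), *1500012F01Rik* (0.85) and *2410006H16Rik* (0.85), and those most like *Ddit3* were *Arid2* (0.92), *Ptpdc1* (0.92) and *Pam16* (0.92). *Asns* was nearest to *Vps8* (0.83), *Tagap1* (0.82) and *Bag2* (0.82), *Psat1* to *Dock9* (0.90), *Psma5* (0.87) and *Cbx2* (0.84), and *Phgdh* to *Gas2l1* (0.93), *Epb4.1l3* (0.93) and *Mov10* (0.92). These r describe libraries that share stage, genotype and cell content, so they carry no test.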

How the data were processed

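Sorted cells were lysed with ERCC spike-in and made into Smart-seq2 libraries, which do not mark strand. The authors mapped reads to mm10 (TopHat2 2.1.1, Cufflinks 2.2.1 and HTSeq 0.11.2 are named in the submitters' processing notes), counted reads per gene, and deposited signal values, counts multiplied by 1 ERCC-derived factor per library. Every value was a whole multiple of that factor (within 0.01; 100% of values), so whole reads were recovered. The calling thresholds were those of the study.

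For each comparison values were rescaled with size factors from medians of ratios, genes averaging 10 reads or more were kept, and log2(value + 10) was tested with limma 3.58.1 (mean-variance trend, Benjamini-Hochberg over all genes tested) in R 4.3.3, which suits calibrated values that are not counts. Genotypes were compared within a stage. Stages and the differences between genotype effects were fitted over all 17 libraries and 13530 genes. Exact intervals and the floor of 3 reads cover counting error only. The tests were tried on simulated data.

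Alternatives were edgeR 4.0.16 and DESeq2 1.42.0 on recovered reads, TMM scaling or no rescaling of the ERCC-calibrated values, a pseudocount of 1 or 50, a minimum mean of 50 reads or none, calls by p alone, a single fit of all libraries, the replicate number as a block, and omission of each replicate in turn. Thinning of WT LZ was added after seeing the data. The members, lists and rules were chosen with earlier results of these data known. Besides the members and *Nat10*, genes were named from each pathway list by the 2 largest differences per direction and stage among called genes that averaged 100 reads and did not overlap between genotypes, and by the 3 highest r with each abundant member. Called genes given only a value, *Mars* and the uncalled *Psph*, *Shmt2*, *Mthfd2* and *Hspa5* fall outside that rule and were named after their values were seen. Positions came from GENCODE vM21 (GRCm38), promoters from RefSeq.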

Additional observations from a re-analysis of the deposited data

Results flagged for a closer look

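4 genes were singled out because the difference between SKO and WT was not the same in LZ as in PreL by a test of that difference (interaction term, limma over all 17 libraries, Benjamini-Hochberg adjusted p under 0.05). At that threshold 15.1% of all 13530 genes were higher in LZ and 23.1% lower, so such a change was common and not particular to the members. The value is the log2 genotype difference in LZ less that in PreL. It was -3.44 for *Ddit3*, whose genotype differences in the stages were 0.79 and -2.70, and -1.47 for *Asns*, with 0.84 and -0.65. It was 1.06 for *Psat1*, with -0.57 and 0.47, and 1.89 for *Ddit4*, with -0.20 and 1.77. *Ddit3* passed this test with any library left out (adjusted p up to 0.000917), as did *Asns* (up to 0.0318). *Psat1* did not pass without WT LZ replicate 3 (0.79, adjusted p = 0.097). *Ddit4* did not pass without WT LZ replicate 2 (1.74, adjusted p = 0.0865), WT LZ replicate 3 (2.003, 0.0619), WT PreL replicate 4 (1.74, 0.0664), SKO PreL replicate 1 (1.91, 0.0534) or 3 (1.63, 0.0743), or SKO LZ replicate 1 (1.67, 0.0778) or 3 (1.78, 0.0665). No group held 4 or more libraries, so no library was tested as an outlier of its group.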

How the results depend on the processing

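On the ERCC-calibrated values without rescaling, 4 members instead of 0 were called higher in PreL, 6 instead of 2 were called from PreL to LZ in WT, 7 instead of 0 from SPG to PreL in SKO and 5 instead of 1 from PreL to LZ in SKO, and 2 instead of 0 had a genotype difference that changed from SPG to PreL. The median of all genes moved by 1.58, 0.96 and 0.76 on the log2 scale in those 3 stage comparisons. For the change of the genotype difference from SPG to PreL it moved by 0.95. On the ERCC-calibrated scale 26.3% of all genes tested were called higher in PreL. No such share is given for the other comparisons, so their counts are not read as results about the members. *Sesn2* in SPG (-0.018), *Psat1* (0.15) and *Ddit4* (0.42) in PreL and *Phgdh* in LZ (-0.039) changed sign on that scale. In the main fit *Psat1* in PreL was past the p threshold (-0.57, limma, adjusted p = 0.0438) and under the fold threshold. The others were far from both thresholds. In LZ, the 1 higher call became 2 with a pseudocount of 50, with no filter and with no fold threshold, 3 with a replicate block and 0 with a mean of at least 50 reads, since *Ddit4* is then not tested. With no filter, 1 member was called higher in SPG. With no fold threshold, 1 was called higher and 1 lower in PreL, 1 from SPG to PreL in WT and 2 from PreL to LZ in SKO. That last count was 0 with a pseudocount of 1 or 50, no filter, a mean of at least 50 reads, edgeR or a replicate block. DESeq2 called 1 from SPG to PreL in SKO.

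Leaving out a replicate gave 0 to 1 higher calls in PreL, 0 to 1 higher calls in LZ, 0 to 1 calls from SPG to PreL in SKO and 0 to 1 from PreL to LZ in SKO. It moved across 0, with no call, *Sesn2* in SPG (-0.41 to 0.54) and PreL (-0.38 to 0.42), *Ddit4* in SPG (-0.396 to 0.12) and PreL (-0.435 to 0.06), *Atf4* in PreL (-0.054 to 0.084) and *Phgdh* in LZ (-0.78 to 0.907). *Sesn2* in PreL was -0.05 with edgeR and with DESeq2, and *Phgdh* in LZ -0.12 and -0.11. Thinning the WT LZ libraries to the smallest SKO LZ library left the counts of calls as they were.

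Nothing in the labels said whether same-numbered WT and SKO libraries shared more than a number. The correlation of their deviations from the group means was 0.07 and 0.00 in SPG, -0.05 and 0.11 in PreL and 0.10 and 0.09 in LZ. With so few libraries per group, these values cannot decide the question. With the number as a replicate block, 1 member was called higher in PreL (*Phgdh*, 1.05) and 3 in LZ (*Ddit4*, 1.54, with *Trib3*, 1.46, and *Slc7a11*, 2.81), 0 from PreL to LZ in SKO, and *Sesn2* in SPG (-0.95) and PreL (-0.26), *Ddit4* in SPG (0.21) and PreL (0.22), *Atf4* in PreL (-0.059) and *Phgdh* in LZ (-0.001) changed sign. *Slc7a11* was tested in LZ only because of its SKO reads, as given above. The cause of the changes under the replicate block was not tested.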
